A study of Mus musculus with 2 samples.

Results

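The genes described here are 10 genes that mark or serve the osteoclast, the bone-resorbing cell of the monocyte and macrophage lineage, followed across every cell population of 2 libraries of tumour leukocytes. They are Ctsk, Mmp9, Acp5, Atp6v0d2, Car2, Slc9b2, Ocstamp, Oscar, Nfatc1 and Rufy4, and they make up 10 of the 12584 genes of the count matrix. They were chosen by their measured levels in these same data, namely a high level in the macrophage population that the authors named Ctsk_Macro, found in the library of the line resistant to targeted therapy. That concentration, and the difference between the libraries that follows from it, are therefore given as description and carry no test.

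Single-cell RNA sequencing was performed on live CD45+ leukocytes sorted from subcutaneous YUMM3.3 mouse melanomas (a line with mutant Braf and Cdkn2a-/-) grown in C57BL/6 mice. NTT denotes the therapy-naive line and RTT its derivative, which is resistant to BRAF inhibition and was kept in the BRAF inhibitor dabrafenib in culture. The label of the record gives 12 days after injection for both groups, whereas the methods name an earlier day for such experiments. Each group was 1 library, and the labels do not say how many tumours or mice went into it. Tumour line, mice and library therefore cannot be told apart, no difference between them can be tested, and all intervals below cover counting error only.

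NTT gave 2975 cells with 19634099 unique molecular identifiers (UMIs, each counting 1 captured transcript molecule), and RTT gave 4840 cells with 44712071. The median cell had 5398 UMIs in NTT and 8336 in RTT. The libraries shared 7 cell barcodes. Ctsk_Macro comprised 280 cells, all from RTT, with a median of 13737 UMIs per cell. No NTT cell of 2975 bore this name, which allows a share of up to 0.101% of cells. Levels are in CPM, the UMIs of a gene per 1000000 UMIs of the same pool of cells. In such sums fewer cells of a type and less RNA per cell cannot be told apart. Each UMI is read from the 3′ end of 1 molecule, so no scaling by transcript length was applied, and levels are compared between cells and not between genes.

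Osteoclasts arise by fusion of mononuclear precursors under M-CSF and RANK ligand, with ITAM-bearing receptors as co-stimulators, and Nfatc1 is the master transcription factor of the process. The mature cell seals off a patch of bone, pumps protons through a vacuolar ATPase to dissolve mineral, and secretes cathepsin K and metalloproteinases that digest the collagen matrix. Some members also work elsewhere: Acp5 is made by many macrophages, Mmp9 is stored in neutrophil granules, and Nfatc1 acts in lymphocytes.

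Of the 10 genes, 5 had a promoter sequence in the RefSeq table used here (GRCm38.p6), with 7 windows in all, each running from 250 bases before to 50 after an annotated start. Of the 6 genes with over 90% of their UMIs in Ctsk_Macro, Atp6v0d2 and Mmp9 had no promoter sequence there. The 4 windows below belong to the rest of these genes and are shown as description. They are written 5′ to 3′ along the gene, and capitals mark matches on either strand to GGAAA (core of NFAT sites), GAGGAA (PU.1), TGANTCA (AP-1) and CATGTG (MITF). Adjoining or overlapping matches, as where a PU.1 match runs into an NFAT match, read as 1 run of capitals. The gene start that GENCODE gives for Ctsk lies close to the end of its window, so that window is almost wholly upstream of that start. The windows lie at chr3:95498960-95499259 (plus strand) for Ctsk, chr3:135307450-135307749 (plus) for Slc9b2, chr7:3616108-3616407 (minus) for Oscar and chr1:74125291-74125590 (plus) for Rufy4.
Ctsk: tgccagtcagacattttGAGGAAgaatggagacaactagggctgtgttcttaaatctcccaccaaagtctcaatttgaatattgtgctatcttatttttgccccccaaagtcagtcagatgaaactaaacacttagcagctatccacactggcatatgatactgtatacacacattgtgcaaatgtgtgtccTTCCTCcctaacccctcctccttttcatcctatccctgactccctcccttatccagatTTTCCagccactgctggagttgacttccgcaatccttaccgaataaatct
Slc9b2: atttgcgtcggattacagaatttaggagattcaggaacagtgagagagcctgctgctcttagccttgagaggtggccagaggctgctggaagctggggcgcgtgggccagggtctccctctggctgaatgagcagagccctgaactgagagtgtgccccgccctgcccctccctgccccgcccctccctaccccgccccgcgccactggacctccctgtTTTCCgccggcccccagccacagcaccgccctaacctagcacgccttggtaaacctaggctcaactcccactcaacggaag
Oscar: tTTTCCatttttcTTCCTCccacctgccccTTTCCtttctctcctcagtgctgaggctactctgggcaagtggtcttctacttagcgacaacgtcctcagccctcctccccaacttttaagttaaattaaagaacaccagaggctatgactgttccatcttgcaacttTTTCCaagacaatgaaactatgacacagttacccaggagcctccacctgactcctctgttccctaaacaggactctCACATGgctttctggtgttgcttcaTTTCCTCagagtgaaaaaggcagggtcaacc
Rufy4: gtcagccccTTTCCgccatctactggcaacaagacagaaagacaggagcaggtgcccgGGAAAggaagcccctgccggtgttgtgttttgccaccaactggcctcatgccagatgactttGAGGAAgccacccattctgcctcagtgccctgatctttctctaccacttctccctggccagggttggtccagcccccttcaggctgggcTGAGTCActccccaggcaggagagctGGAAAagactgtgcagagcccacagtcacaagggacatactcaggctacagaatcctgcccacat

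The Oscar window held 4 NFAT, 2 PU.1 and 1 MITF match, the Rufy4 window 3 NFAT, 1 PU.1 and 1 AP-1 match, the Ctsk window 1 NFAT and 2 PU.1 matches, and the Slc9b2 window 1 NFAT match alone. Acp5 had 3 windows on chromosome 9, of which 1 held 2 NFAT matches and 1 MITF match and the other 2 held 1 NFAT match each. Such letters are common: of 32851 promoter windows, 61.3% held GGAAA, 28.3% GAGGAA, 14.2% CATGTG and 7.81% TGANTCA. A match is a description of the sequence and not evidence of a bound site.

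The digestive enzymes of the osteoclast, Ctsk, Mmp9 and Acp5, all had their highest level in Ctsk_Macro. Ctsk, which encodes the collagen-cleaving protease cathepsin K (chromosome 3, 95499256 to 95509362, mm10), gave 65670 UMIs in the 280 cells, a level of 16143 CPM. In the other 13 RTT populations with at least 20 cells Ctsk lay between 4.67 and 30.4 CPM, with a median of 17.5 CPM, and in the whole NTT library it gave 4 UMIs, 1 in each of 4 cells. Thus 98.9% of all Ctsk UMIs (95% exact interval 98.8% to 99.0%) came from Ctsk_Macro, which held 3.58% of the cells. Mmp9, gelatinase B (chromosome 2, 164940780 to 164955850), stood at 7547 CPM in Ctsk_Macro. The cells named Neutro came next, with 340 CPM in NTT and 149 CPM in RTT, followed by NTT TAM_Spp1 at 66.1 CPM, and these 3 intervals did not overlap. The RTT cells named Neutro also held macrophage markers, as given below. Acp5, the tartrate-resistant acid phosphatase used to stain osteoclasts (chromosome 9, 22126727 to 22135711), reached 23710 CPM, but only 89.0% of its UMIs were in Ctsk_Macro. NTT TAM_H2Ab1 and NTT TAM_cycling followed at 1358 and 1257 CPM, and Acp5 was detected in all 25 groups of cells.

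The genes of acid secretion showed a similar distribution, with 1 exception. Atp6v0d2, the d2 subunit of the vacuolar ATPase (chromosome 4, 19876841 to 19922605), stood at 1250 CPM in Ctsk_Macro, and the next group, NTT cells named Macro, stood at 10.1 CPM on 7 UMIs. It was at 0 UMIs in 14 of the 25 groups. Slc9b2, a sodium and proton exchanger (chromosome 3, 135307700 to 135345387), stood at 811 CPM, and no other group exceeded 7.26 CPM. Car2, carbonic anhydrase II, which supplies the protons (chromosome 3, 14886273 to 14900770), was the exception. Its 169 CPM in Ctsk_Macro (157 to 182) overlapped in interval with 129 CPM in NTT DC3 (105 to 157). RTT DC3 and the cells named NK_cells of both libraries, called NK cells below, lay between 43.4 and 63.6 CPM. Ctsk_Macro held 69.4% of the Car2 UMIs, and NTT DC3 held 33.6% of the rest. The cells named NK_cells had the highest levels of the T cell markers Cd3d, Cd3e, Trac and Cd8a, and also of Ncr1 and Klrb1c. Cd3d stood there at 1610 CPM in NTT and 1318 CPM in RTT, so this name covers T cells too.

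Among the genes of fusion, co-stimulation and regulation, Ocstamp stood apart. Ocstamp encodes a membrane protein of osteoclast fusion (chromosome 2, 165393760 to 165400405), and its highest level was again in Ctsk_Macro, at 337 CPM. Yet NTT Monocyte_1 reached 263 CPM, NTT Infl_Mono 150 CPM and NTT cDC2 137 CPM, and NTT Monocyte_1 alone gave 1425 UMIs against 1371 in Ctsk_Macro. Of its UMIs 32.1% were in Ctsk_Macro, the lowest share among the 10 members, and 16.6% with each cell thinned to 2000 UMIs or 17.3% by the mean of per-cell CPM. Oscar, an immunoglobulin-like receptor that signals through FcRγ (chromosome 7, 3609813 to 3616157), was at 0 UMIs in 21 of the 25 groups, the most of any member: it stood at 250 CPM in Ctsk_Macro, with 13 UMIs in all other RTT cells and 0 UMIs in NTT, where 3 UMIs would be 0.153 CPM. Nfatc1 was detected in all 25 groups: 701 CPM in Ctsk_Macro, 142 CPM in NTT NK cells and 75.9 CPM in RTT NK cells, with 53.1% of its UMIs in Ctsk_Macro. Rufy4, a RUN and FYVE domain protein (chromosome 1, 74125541 to 74148223), stood at 195 CPM in Ctsk_Macro and at 13.2 CPM, on 6 UMIs, in NTT neutrophils.

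In all, 9 of 10 members had over 50% of their UMIs in Ctsk_Macro and 6 of 10 had over 90%, whereas over all 8220 genes with at least 500 UMIs this held for 27 genes, or 0.328%. Since this concentration chose the members, nothing is read from the comparison. By the mean of per-cell CPM, 7 members had over 50%, as the shares of Car2 and Nfatc1 were then 47.7% and 39.4%.

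**Figure D1:**
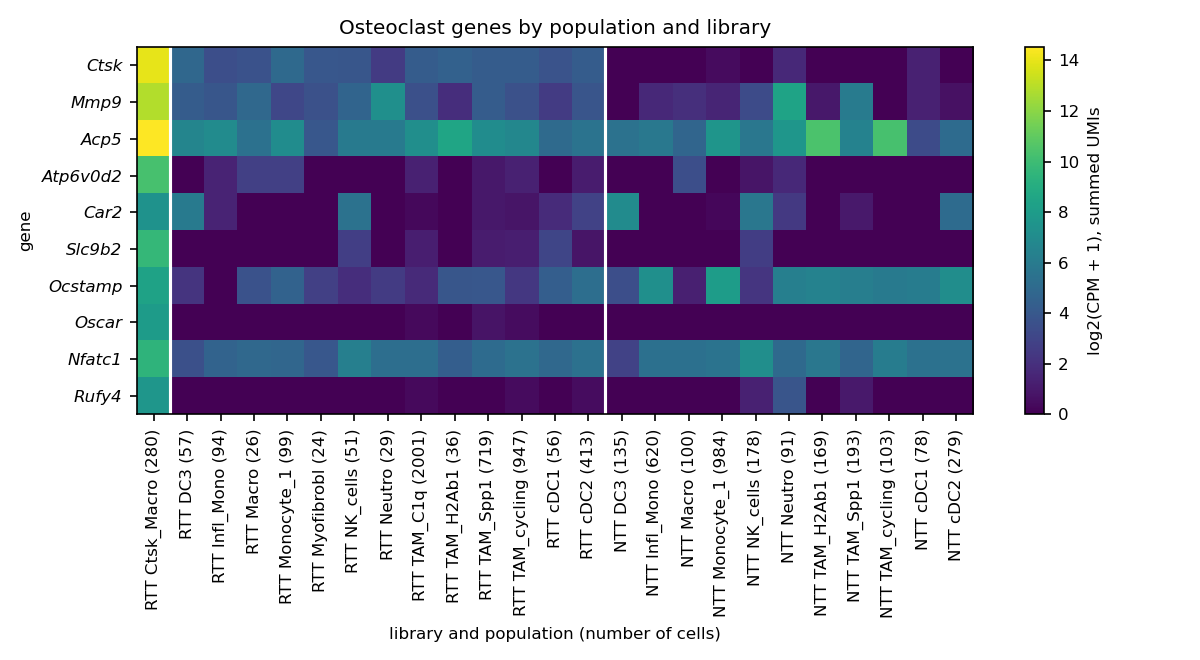
Level of each osteoclast gene, as log2(CPM + 1) of summed UMIs (colour), in each library and population with at least 20 cells (columns, number of cells in parentheses; white lines set off Ctsk_Macro and separate RTT from NTT). Ctsk_Macro is the brightest column for all 10 genes, from 169 CPM for Car2 to 23710 CPM for Acp5, while Ocstamp also rises to 263 CPM in NTT Monocyte_1 and Acp5 to 1358 CPM in NTT TAM_H2Ab1.

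Summed over all cells, 7 of the 10 genes were at least 2-fold higher in RTT, against 8.18% of the 8220 genes tested, and 1 was at least 2-fold lower, against 9.6%. Ctsk rose from 4 UMIs (0.204 CPM) to 66386 UMIs (1485 CPM), a log2 ratio of 12.83 (11.47 to 14.71). Oscar, with 0 UMIs in NTT and 1030 in RTT, was at least 151-fold higher, taking 3 UMIs over the NTT library as the floor. Acp5 rose from 356 to 2268 CPM (log2 ratio 2.67, 2.64 to 2.71). Nfatc1 went from 50.2 to 98.05 CPM (log2 ratio 0.97, 0.87 to 1.07) and Car2 from 12.0 to 16.9 CPM (0.50, 0.29 to 0.72), both short of 2-fold. The direction of Car2 turned with each cell thinned to 2000 UMIs (-0.26) and by the mean of per-cell CPM (-0.04). Ocstamp went the other way, from 133 CPM in NTT to 37.0 CPM in RTT, a log2 ratio of -1.85 (-1.94 to -1.76). The median over all genes tested was 0.10.

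Outside Ctsk_Macro the differences were of another kind. Of the 5 members with at least 500 UMIs there, Ctsk alone was at least 2-fold higher in RTT (background 7.37% of 8070 genes), and Acp5 and Ocstamp were at least 2-fold lower (background 9.34%). The other members were Mmp9, at 13.4 CPM in NTT and 12.7 CPM in RTT (log2 ratio -0.08, -0.30 to 0.14), and Nfatc1, at 50.2 and 37.7 CPM (-0.41, -0.53 to -0.30). Ocstamp fell from 133 to 6.99 CPM, a log2 ratio of -4.25 (-4.43 to -4.07), and Acp5 from 356 to 122 CPM (-1.54, -1.60 to -1.49). Acp5 fell short of 2-fold by the mean of per-cell CPM (-0.86) and with each cell thinned to 2000 UMIs (-0.85). Among the 5 members below that count, Car2 went from 235 UMIs (12.0 CPM) to 69 UMIs (1.70 CPM), a log2 ratio of -2.82 (-3.23 to -2.42). Atp6v0d2 gave 10 UMIs in NTT and 61 in RTT, Slc9b2 gave 7 and 53, Oscar 0 and 13, and Rufy4 9 and 10. The cells behind these sums differ between the libraries, as RTT held 947 TAM_cycling and 2001 TAM_C1q cells and NTT 103 and 17, whereas NTT held 984 Monocyte_1 cells and RTT 99.

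**Figure D2:**
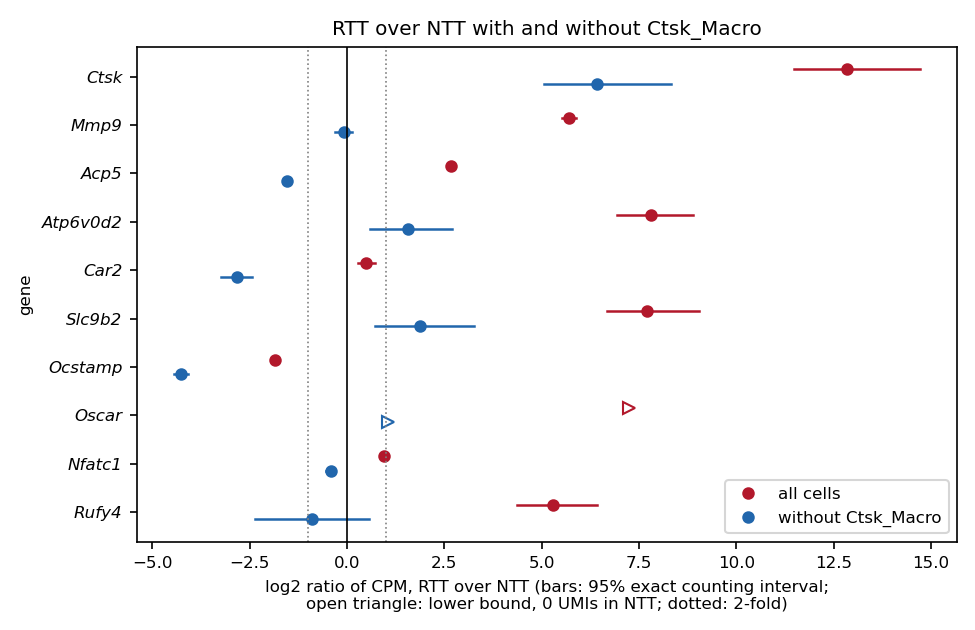
Log2 ratio of CPM, RTT over NTT, for each gene over all cells (red) and without Ctsk_Macro (blue); bars are 95% exact counting intervals and open triangles are lower bounds where NTT had 0 UMIs. Removing the 280 cells of Ctsk_Macro takes Acp5 from 2.67 to -1.54 and Mmp9 from 5.70 to -0.08, while Ctsk stays above 0 at 6.43.

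Within populations that had at least 20 cells in both libraries, 11 in all, Ocstamp was lower in RTT with an interval below 0 in 8 of the 10 that allowed a ratio. In Monocyte_1 it went from 263 to 22.8 CPM (log2 ratio -3.53, -4.48 to -2.72) and in cDC2 from 137 to 37.1 CPM (-1.88, -2.24 to -1.53). In Infl_Mono it went from 470 UMIs to 0 UMIs, so that it was at least 29.3-fold lower at the floor of 3 UMIs in the RTT pool. These 8 populations bore the names of monocytes, macrophages, dendritic cells and neutrophils. Infl_Mono, TAM_Spp1, Neutro, TAM_cycling, cDC1 and cDC2, all among them, differed in their markers between the libraries, as given next.

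Cells of the same name differed in their markers between the libraries. In Infl_Mono the 8 macrophage markers summed to 8824 CPM in NTT and 33404 CPM in RTT, and the 5 monocyte markers to 12087 and 4243 CPM. In TAM_Spp1 the same sums were 9104 and 22204 CPM for macrophage and 8114 and 2604 CPM for monocyte markers. In Neutro the 6 neutrophil markers summed to 75206 CPM in NTT and 16232 CPM in RTT, and the macrophage markers to 5943 and 40378 CPM. In TAM_cycling the 5 B and plasma cell markers summed to 2283 CPM in NTT and 0.410 CPM in RTT. Igkc gave 3866 of these 4333 UMIs in NTT. In cDC2 the monocyte markers summed to 4996 CPM in NTT and 728 CPM in RTT, and the dendritic cell markers to 908 and 1271 CPM. In cDC1 the same sums were 3214 and 1080 CPM for monocyte and 691 and 811 CPM for dendritic cell markers. In DC3 the macrophage markers summed to 934 CPM in NTT and 5071 CPM in RTT, and the monocyte markers to 1431.5 and 155 CPM. The part of these differences in the values within populations, those of Ocstamp above and those that follow, was not tested.

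Acp5 split by population, being higher in RTT with an interval above 0 in 5 of 11 and lower in 4. It was lower in RTT in TAM_cycling (1257 to 103 CPM, log2 ratio -3.61, -3.70 to -3.51) and TAM_H2Ab1 (1358 to 366 CPM, -1.89, -2.15 to -1.64), and higher in RTT in Infl_Mono (56.0 to 129 CPM, 1.205, 0.80 to 1.601) and TAM_Spp1 (85.6 to 134 CPM, 0.65, 0.32 to 0.99). Mmp9 was higher in RTT with an interval above 0 in 6 of the 9 populations that allowed a ratio. Among them were Infl_Mono (2.23 to 13.6 CPM, on 7 and 8 UMIs) and cDC2 (0.586 to 13.3 CPM, on 1 and 34 UMIs). The RTT count of Mmp9 was 139 UMIs in TAM_cycling, 9 in NK cells and 5 each in DC3 and Macro. Mmp9 was lower in 2, the cells named Neutro, from 340 to 149 CPM (-1.19, -1.78 to -0.63), and TAM_Spp1, from 66.1 to 17.9 CPM (-1.89, -2.37 to -1.40). Car2 went from 129 to 63.6 CPM in DC3 and from 33.4 to 6.26 CPM in cDC2. In NK cells Car2 stood at 54.3 and 43.4 CPM, with an interval that included 0 (-0.32, -1.20 to 0.47). Nfatc1 was lower in RTT in NK cells (142 to 75.9 CPM, -0.90, -1.53 to -0.32) and had an interval that included 0 in 7 of 11 populations.

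In droplet data, RNA released from broken cells gives a low level of UMIs in cells that do not express a gene, and 1 source keeps its genes in 1 ratio. In Ctsk_Macro, 1000 Ctsk UMIs were accompanied by 77.5 Atp6v0d2, 15.5 Oscar and 12.1 Rufy4 UMIs. The 4560 other RTT cells, with 716 Ctsk UMIs, held 61 Atp6v0d2 UMIs where that ratio gives 55.5, 13 Oscar UMIs where it gives 11.1, and 10 Rufy4 UMIs where it gives 8.67. Observed over that number, the values were 1.10 (0.83 to 1.43), 1.17 (0.62 to 2.02) and 1.15 (0.55 to 2.13). Slc9b2 at 1.47 (1.09 to 1.95) and Mmp9 at 1.54 (1.37 to 1.73) lay somewhat above 1. The other members lay far above it: Acp5 at 4.72 (4.37 to 5.11), Car2 at 9.20 (7.08 to 11.8), Ocstamp at 19.0 (16.5 to 21.8) and Nfatc1 at 49.3 (45.1 to 54.0). By population, Mmp9 stood at 1.34 (0.34 to 4.63) in DC3 and 1.36 (1.09 to 1.69) in TAM_cycling. It stood at 2.85 (0.87 to 9.97) in Infl_Mono and 3.85 (1.16 to 14.6) in NK cells. The part of free RNA in the UMIs outside Ctsk_Macro, the log2 ratio of 6.43 for Ctsk included, was not tested.

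**Figure D3:**
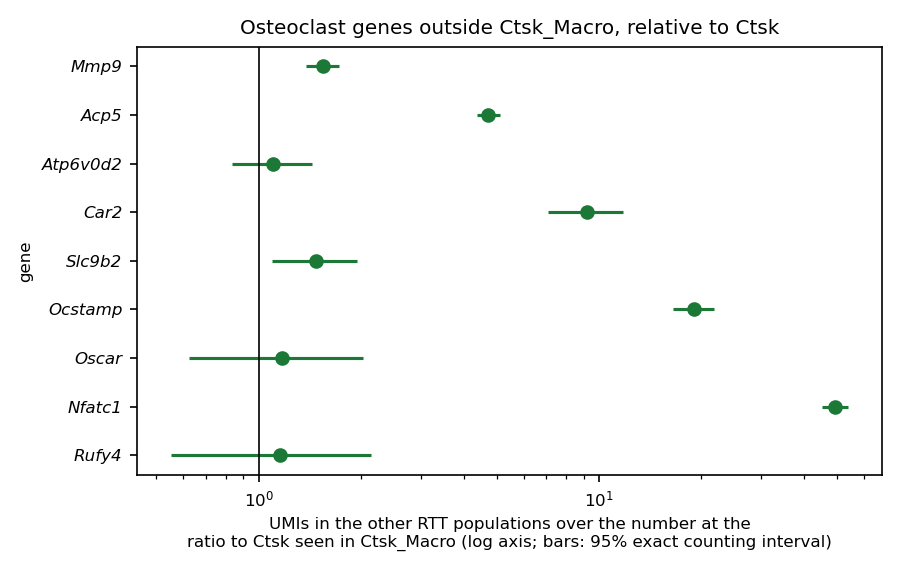
UMIs of 9 osteoclast genes in the 4560 RTT cells outside Ctsk_Macro, divided by the number that their ratio to Ctsk in Ctsk_Macro would give there (log axis, points; bars are 95% exact counting intervals; the line marks 1). Atp6v0d2, Oscar and Rufy4 have intervals that include 1, and Nfatc1 lies farthest from it at 49.3.

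The share of cells with a UMI also set Ctsk_Macro apart. There, 91.8% of cells had a Ctsk UMI, 93.9% an Atp6v0d2 UMI, 98.6% an Acp5 UMI and 57.5% an Oscar UMI. In RTT NK cells, a type that should lack Ctsk, 9.80% of 51 cells had one (3.26% to 21.4%), at a median of 3967 UMIs per cell, and 13.7% of all RTT cells outside Ctsk_Macro did. When each cell was thinned to 2000 UMIs, which left out 2 Ctsk_Macro cells and 10 RTT NK cells, the shares for Ctsk were 89.6% and 4.88%. Oscar then stood at 30.6% and Car2 at 19.4% of Ctsk_Macro cells. Only 2 of the 4560 other RTT cells had more than 3 Ctsk UMIs, the highest with 13, and 245 of the 280 Ctsk_Macro cells had more than that.

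Individual cells carried the genes together. Of the 280 Ctsk_Macro cells, 257 had UMIs of at least 5 members, 219 of at least 8 and 104 of all 10, with a median of 9. Outside it, 10 of 4560 RTT cells and 0 of 2975 NTT cells had 5 or more, the NTT count allowing a share of up to 0.101%. Those 10 cells were 9 TAM_cycling and 1 TAM_C1q cell, and none had more than 2 Ctsk UMIs. At 2000 UMIs per cell, 223 of 278 Ctsk_Macro cells had 5 or more members and no other cell did, the highest number elsewhere being 4.

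Ctsk_Macro was not uniform. Ctsk ranged from 0 to 43504 CPM per cell, with quartiles of 8608 and 23611 CPM: 202 cells lay above 10000 CPM and 23 had no Ctsk UMI. Mmp9 was spread more widely, with 111 cells above 10000 CPM and 45 cells at 0. Acp5 was at 0 in 4 cells and Nfatc1 in 12. Of the 23 cells with 4 or fewer members, 17 had no Ctsk UMI and 13 had a UMI of the cell cycle genes Mki67 or Top2a, and their median total was 10967 UMIs. Leaving these 23 cells out, an alternative added after seeing the data, left the 5 counts of genes recomputed with it as they were.

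All 45 pairs of members correlated above 0 across the 280 cells (log2 of UMIs per 10000, plus 1), from 0.23 for Car2 with Nfatc1 to 0.86 for Ctsk with Acp5, with a median of 0.50. The cells share 1 library and their depth and the genes chose the population, so these are descriptions. After thinning to 2000 UMIs the median was 0.25. Car2 and Nfatc1 had median correlations of 0.39 and 0.38 to the other 9 genes, and of 0.18 and 0.24 after thinning.

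A division of the population by a gene outside the set was made after its values had been seen. The 65 cells with a Mki67 or Top2a UMI (23.2%; median 15062 UMIs) were set against the 215 without (median 13355 UMIs). Without such a UMI, Oscar stood at 303 CPM against 104 CPM with one (log2 ratio 1.55, 1.26 to 1.84), Mmp9 at 8899 against 3810 CPM (1.22, 1.18 to 1.27), Acp5 at 27836 against 12303 CPM (1.18) and Ocstamp at 391 against 188 CPM (1.06, 0.84 to 1.28). These 4 genes passed 2-fold, as did 1.2% of 5014 genes. Ctsk, at 18514 and 9587 CPM, fell just short at 0.95. Nfatc1 differed least, at 739 against 594 CPM (0.32, 0.19 to 0.44). With cells thinned to 2000 UMIs and the same 2 classes, Rufy4 went from 0.70 to -0.04, Ocstamp fell short of 2-fold at 0.83, Ctsk passed it at 1.06, and Oscar stood at 1.95 and Mmp9 at 1.31. With the classes also set on the thinned UMIs, which left 30 cells with a Mki67 or Top2a UMI, all 10 members passed 2-fold, from 1.04 for Nfatc1 to 4.17 for Oscar, with Rufy4 at 2.80. The share of all genes past 2-fold was not computed with thinned cells, so nothing about the members is read from this count.

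**Figure D4:**
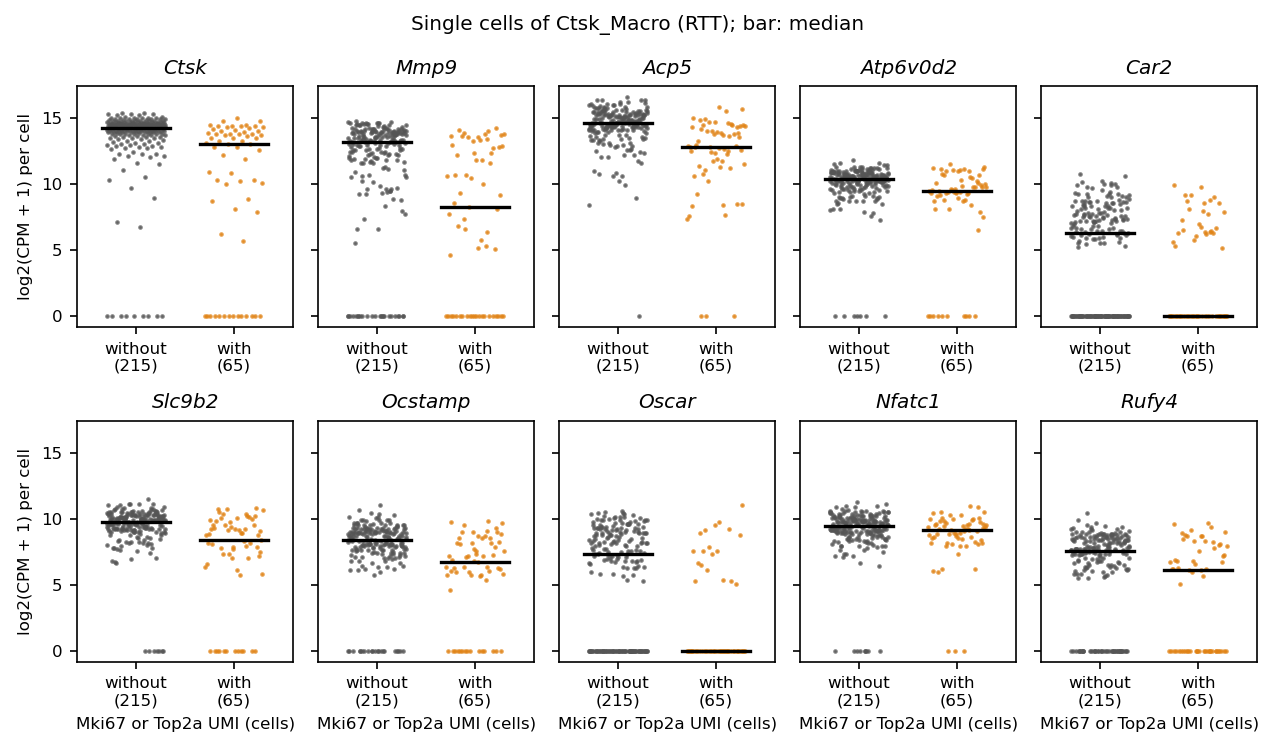
Level of each gene in single Ctsk_Macro cells, as log2(CPM + 1), in 215 cells without and 65 cells with a Mki67 or Top2a UMI; points are cells and black bars medians. The median for Mmp9 lies at 9120 CPM without and 308 CPM with such a UMI, while Nfatc1 lies at 686 and 554 CPM.

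Close relatives of the members went with them or against them. Relative to the 3729 other RTT macrophages, all 10 members were at least 2-fold higher in Ctsk_Macro (background 9.69% of 9418 genes with at least 100 UMIs), by log2 ratios of 4.21 for Nfatc1 to 9.83 for Ctsk. In the same comparison the lysosomal cathepsins Ctsb, Ctsl and Ctss stood at -1.91, -2.30 and -2.70. Atp6v0d1, the ubiquitous relative of Atp6v0d2, was at 178 against 245 CPM (-0.46), and Nfatc2 and Nfatc3 stood at -1.81 and -0.04. Mmp12, macrophage elastase, stood at -2.88, and the lysosomal phosphatase Acp2 at -1.34. Slc9b1, the neighbour and paralogue of Slc9b2, gave 24 UMIs in Ctsk_Macro and 1 in the other macrophages. Dcstamp, the fusion protein related to Ocstamp, was at 302 against 5.66 CPM (5.74, 5.52 to 5.96), though RTT cDC2 also held 194 CPM of it.

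Of the 115 other genes of the osteoclast pathway in the matrix, 108 had enough UMIs, and 38 were at least 2-fold higher and 22 at least 2-fold lower in Ctsk_Macro than in the other RTT macrophages (background 9.69% and 16.1%). Genes of acid secretion were mostly higher. Of 17 vacuolar ATPase subunits, 13 were higher, led by Atp6v1b2 (918 against 119 CPM, 2.94), Atp6v1d (1.98) and Atp6v1g1 (1.94), and the median was 1.59 against -0.07 for all genes. The single lower subunit was Atp6v0a1, at 6.64 against 60.3 CPM (-3.18), while Tcirg1, which encodes the a3 subunit of the osteoclast pump, was at 413 against 119 CPM (1.798). Of 6 partners of acid secretion 5 were higher: Slc37a2 (3.08), Snx10 (3.03), the chloride and bicarbonate exchanger Slc4a2 (2.80), Plekhm1 (2.00) and the chloride channel Clcn7 (1.65). Ostm1 was at 0.48.

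Among mature osteoclast markers, 9 of the 10 with enough UMIs were higher, with a median of 2.86. This list repeats genes counted in the other lists, namely Tcirg1, Clcn7, Ostm1, Itgb3, Siglec15, Tnfrsf11a and Dcstamp, so the lists are not independent. Siglec15, a sialic acid receptor of osteoclasts, gave 101 UMIs against 1 (log2 ratio 9.78, 7.27 to 15.09). The integrin subunit Itgb3 gave 210 against 18 UMIs (6.66, 5.97 to 7.44), and Tnfrsf11a, which encodes RANK, stood at 149 against 56.6 CPM (1.40). Calcr, the calcitonin receptor, gave only 12 UMIs against 0, which is at least 34.7-fold higher. Of 15 attachment and sealing zone genes 7 were higher, with Itgb3, Cttn (4.14) and the kinase Src (3.44) in front, and Itgb5 was lower (-2.53).

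Of 13 osteoclast transcription factors 5 were higher: Ppargc1b (4.52), Prdm1 (3.38), Mitf (2.40), Fosl2 (2.24) and Esrra (1.03). Fos, Spi1 and the Jun genes stayed within 2-fold. Of 10 inhibitors of osteoclast formation 8 were lower and 0 higher, with a median of -1.83: Irf8 was at 26.1 against 201 CPM (-2.95) and Lilrb4a at 36.1 against 317 CPM (-3.13). Id1 gave 3 UMIs against 308 (log2 ratio -3.56, -5.85 to -2.003). Of 12 RANK signalling genes only Tnfrsf11a passed 2-fold, and none was lower. Of 10 ITAM genes Siglec15 was higher and Fcer1g (-1.39) and Plcg2 (-1.24) lower, and none of 3 M-CSF axis genes passed 2-fold. Tnfsf11, the RANK ligand, had 0 UMIs in both groups of macrophages. Its highest level was in the cells named NK_cells, which also held T cell markers, at 39.2 CPM in NTT and 32.5 CPM in RTT. Of 10 other matrix proteases and inhibitors 7 were lower and 0 higher, and of 9 fusion genes 3 were higher and 3 lower.

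**Figure D5:**
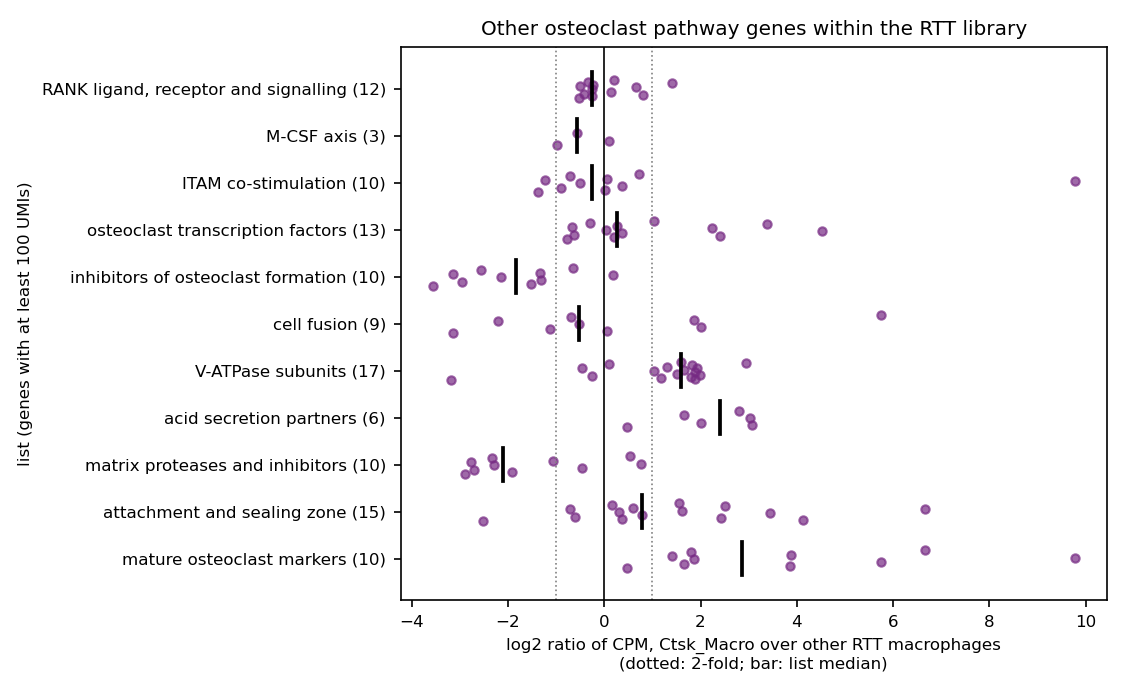
Log2 ratio of CPM, Ctsk_Macro over the other RTT macrophages, for each gene with at least 100 UMIs (points) of 11 lists of osteoclast pathway genes, the 10 members left out; black bars are list medians and dotted lines 2-fold. The medians run from -2.10 for matrix proteases and inhibitors and -1.83 for inhibitors of osteoclast formation to 1.59 for vacuolar ATPase subunits, 2.40 for acid secretion partners and 2.86 for mature markers. Some genes appear in several lists.

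Of the 105 pathway genes with at least 500 UMIs, 13 were at least 2-fold higher and 12 at least 2-fold lower in RTT over all cells. The background was 8.18% higher and 9.6% lower, and the median log2 ratio of the 105 genes was 0.06. Dcstamp was the highest of the fusion genes, with 18 UMIs in NTT and 1955 in RTT (log2 ratio 5.58). Among 14 genes that the study itself used to mark Ctsk_Macro, a list drawn from a map that held these libraries and thus not independent, 12 were higher in Ctsk_Macro, led by Chchd10 (4.53) and Adcy3 (4.42). The study's legend to its marker lists names tumours of another melanoma model.

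Markers of other cells were mostly low in Ctsk_Macro, while macrophage and neutrophil markers were mixed. Of 8 general macrophage markers, 6 were at least 2-fold lower than in the other RTT macrophages, C1qa at 833 against 8669 CPM, while Csf1r (0.11) and Cd68 (0.57) were within 2-fold. All 5 monocyte markers were lower. Of 8 T and NK cell markers 7 were at 0 UMIs, and Trac was the exception with 91 UMIs. The neutrophil markers S100a8 and S100a9 stood at 51.6 and 48.7 CPM, against 14.95 and 10.8 CPM, with Retnlg and Mmp8 at 0 UMIs. B and plasma cell markers summed to 1 UMI, dendritic cell markers to 29, mast cell markers to 1, fibroblast markers to 10, and the 1 melanoma marker in the matrix to 3 UMIs. The 5 cell cycle markers gave 617 CPM in sum.

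Across the 25 groups of cells, the genes outside the set whose log2(CPM + 1) was most like that of Ctsk were Hagh (Pearson's r 0.82), the respiratory complex I subunit Ndufs7 (0.81), Bdh2 (0.81), the pyruvate dehydrogenase subunit Pdhb (0.79) and Cyc1 of complex III (0.78). Of these only Bdh2 was itself concentrated, with 92.5% of its UMIs in Ctsk_Macro. Jdp2, a basic leucine zipper factor, was most like Mmp9 (0.90) and Coq8a most like Slc9b2 (0.84) and Nfatc1 (0.81). Nudt22 was most like Oscar (0.84), Atp6v1b2 most like Atp6v0d2 (0.75), Atp6v1c1 most like Acp5 (0.81), Steap4 most like Rufy4 (0.82), the actin-severing protein Scin most like Car2 (0.84), and Mical1 most like Ocstamp (0.66). The groups come from 2 libraries and differ in depth, so these are descriptions. The genes most like Ctsk also depended on the setting and on Ctsk_Macro itself, as given in the last section.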

How the data were processed

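The authors made both libraries with 10x 3′ chemistry, counted UMIs with Cell Ranger 6.1.1 (per the labels; mm10), filtered cells and genes, and deposited raw UMI counts for 12584 genes in 7815 cells (unit: counts, not normalised) with a table of each cell's library, total count, detected genes and population name. Names came from clusters of a map shared with another melanoma model. Column sums equalled the deposited totals in all 7815 cells. The members and lists were chosen with earlier results of these data known.

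UMIs were summed over pools of cells and scaled to CPM, with exact Poisson 95% intervals for levels, Clopper-Pearson intervals for shares, and exact binomial intervals of the pair of counts for log2 ratios. With 0 UMIs in 1 pool, 3 UMIs over the pool set a bound, and no ratio was given where both pools held 3 or fewer. The 2-fold call was made for genes whose UMIs in the 2 libraries together came to 500 or more, or to 100 or more in 2 pools of 1 library. With 1 library per group no test was run. On counts simulated with known ratios the code was checked before use. Genes named with values were all 10 members, and of each list up to the 3 largest and 2 smallest log2 ratios, genes at 0, further list members given beside their list's count, and the genes most like each member. Other macrophages were TAM_C1q, TAM_Spp1, TAM_cycling, TAM_H2Ab1 and Macro. Scrublet (scanpy 1.11.5) marked 0 cells in either library, and the reason was not examined. No doublet was removed, and 1 alternative left out the 2% of cells with the most UMIs. Alternatives also used edgeR 4.0.16 and DESeq2 1.42.0 scaling and new Leiden clusters (leidenalg 0.10.2). Gene positions are from GENCODE (mm10) and promoters from RefSeq (GRCm38.p6). Software was Python 3.11.15, numpy 2.4.6, scipy 1.17.1 and pandas 2.3.3. The values of 1 listed gene are not reported here.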

Additional observations from a re-analysis of the deposited data

Results flagged for a closer look

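2 members differed between the libraries in opposite directions in different populations, each past 2-fold with an interval off 0. With 1 library per group the difference between populations was not tested. Mmp9 had a log2 ratio, RTT over NTT, of 4.50 in cDC2 (1 UMI in NTT and 34 in RTT; 1.93 to 9.85) and of -1.89 in TAM_Spp1 (68 and 78 UMIs). In RTT cDC2, Mmp9 gave 34 UMIs where its ratio to Ctsk in Ctsk_Macro gives 21.0, a quotient of 1.62 (1.00 to 2.58). Acp5 had a log2 ratio of 1.78 in cDC1 (6 UMIs in NTT and 13 in RTT; 0.28 to 3.46) and of -3.61 in TAM_cycling (2387 and 1259 UMIs). The NTT cells named TAM_cycling also held B and plasma cell markers, at 2283 CPM in sum against 0.410 CPM in RTT. In cDC2 the monocyte markers summed to 4996 CPM in NTT and 728 CPM in RTT, and in cDC1 to 3214 and 1080 CPM.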

How the results depend on the processing

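The counts of genes at least 2-fold higher, and of members with over 50% of their UMIs in Ctsk_Macro, stayed within 1.5 times the values given under every alternative run. The counts were 7 of 10 members higher in RTT over all cells, 1 outside Ctsk_Macro, and 7 to 9 with over 50% of their UMIs in Ctsk_Macro (7 with the mean of per-cell CPM and at 2000 UMIs per cell, 8 with new clusters). Pathway genes higher in Ctsk_Macro numbered 36 to 41, and those higher in RTT over all cells 13 to 16. The scaling factors of edgeR and DESeq2 moved log2 ratios by at most 0.03. The cluster made anew without the members and lists held 246 of the 280 Ctsk_Macro cells and no other cell. Over all cells, Car2 ranged from -0.26 to 0.73 around its 0.50, and outside Ctsk_Macro Mmp9 ranged from -0.51 to 0.78 and Rufy4 from -1.83 to 0.58, so their directions there depend on the setting, and the cause was not tested. Counts of genes at least 2-fold lower were not recomputed, but Acp5 outside Ctsk_Macro fell short of 2-fold by the mean of per-cell CPM (-0.86) and at 2000 UMIs per cell (-0.85), and the share of Ocstamp UMIs in Ctsk_Macro went from 32.1% to 17.3% and 16.6%. Of the 5 genes most like Ctsk, 4 stayed at a minimum of 100 UMIs, 1 with log2(CPM + 10) and 0 without Ctsk_Macro. The alternative without scrublet doublets could not be run, as no cell was marked. No paired analysis was possible because each group is 1 library. Depth limits the values outside Ctsk_Macro, where Oscar rests on 13 and Rufy4 on 19 UMIs.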
